A study of Rattus norvegicus with 6 samples.

Results

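Nucleoporins are the proteins of the nuclear pore, the channel through which RNA and proteins pass between nucleus and cytoplasm. Nuclear transport receptors, also called karyopherins, are the importins, transportins and exportins that carry cargo through it. The genes described here are those with a coding probe (an mRNA accession) whose rat symbol begins with Nup, Kpna, Kpnb, Ipo, Tnpo or Xpo followed by a number, or is Xpot, with 1 probe per gene. This rule found 34 genes, 17 nucleoporins and 17 receptors, of 13823 coding genes with a named probe. Among several probes of a gene, the probe would have been chosen by its highest mean signal over the scans, but each of the 34 had 1 coding probe, printed as 1 spot per array, so no measured value chose between probes. Another 15 protein-coding genes that match the rule in the GRCr8 gene table (among them Nup133, Nup43, Nup188, Nup214, Tnpo1, Ipo5, Ipo8, Ipo11, Kpna7, Xpo4 and Xpot) had no matched coding probe and were not analysed here.

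The samples were H9c2 cells, a clonal myoblast line derived from embryonic rat heart, measured on 1-colour (Cy3) Agilent arrays. The H/R group (3 samples) was deprived of serum and glucose and spent 1 h at 1% oxygen, with 5% carbon dioxide and 94% nitrogen, and then 3 h of reoxygenation, and the control group (3 samples) is labelled only as control. The labels name no genotype or transgene in either group and give both the same growth medium, with 10% serum and 4500 mg/L glucose. They repeat the treatment text for the controls, so whether the controls also lost serum and glucose is not stated. A protocol text gives mouse cortex as the tissue extracted, contrary to all other labels.

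In each group the scans of replicates 2 and 3 came from the same slide position. In each group 36 spots carried an uneven-background flag in both scans, where no other pair of the 13 had more than 1. Over all spots well above background in both scans, the median absolute difference was 0.0278 (H/R) and 0.0244 (control) on the log2 scale. For other pairs within a group it was 0.127 to 0.140. Since scans of 1 position differed by less than the noise between arrays, each such pair was averaged and counted as 1 array, leaving n = 2 arrays per group. The labels do not say that arrays came from separate cultures. The p-values therefore reflect array-to-array spread alone, and that spread may be technical. All arrays lay on 1 slide, each at its own position, and an effect of position cannot be told apart from that of the group. Between 58.4% and 71.1% of spots were well above background per scan and 0 were saturated. Precision is limited by the number of arrays. Of 12 muscle and heart markers with a probe, 11 were tested, and Des, Myog, Myf5, Cdh15 and Actc1 were well above background in all 6 scans, while Myf6 was not in any. Tnnt2 rose and Myod1 fell, Chrna1 was well above background in 3 H/R and 0 control scans, and the list's summed signal was 30.6 to 35.1 in H/R scans, against 29.4 to 32.8 in control scans. The leukocyte markers Ptprc, Adgre1 and Itgam and the endothelial markers Pecam1 and Cdh5 stayed below that level in all 6 scans. The other 3 leukocyte markers, Csf1r, Aif1 and Cd68, were above it in all 6 scans and did not pass, with changes of 0.40, 0.24 and -0.66 on the log2 scale, and H/R scans of Csf1r and Aif1 all lay above the control scans. The summed signal of the 6 leukocyte markers was 0.321 to 0.365 in H/R, against 0.283 to 0.446 in control, and the part of other cell types in the results was not tested. Of the endothelial list 1 gene was tested, Tek, which rose by 1.11 on the log2 scale (limma, adjusted p = 0.00848), and the list's summed signal was 0.0901 to 0.112 in H/R scans, against 0.0449 to 0.0486 in control scans. In bulk RNA of this kind, fewer cells of a type and less RNA per cell cannot be told apart.

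As background, the pore is built from repeated subcomplexes. Y-shaped complexes form its outer rings, and an inner ring lines the pore membrane. Nucleoporins rich in phenylalanine-glycine (FG) repeats fill the channel, and filaments and a basket stand on the cytoplasmic and nuclear sides. Importin alpha proteins (Kpna genes) recognise the classical nuclear localisation signal and are carried by importin beta (Kpnb1), while other members of the beta family bind cargo directly. The small GTPase Ran, loaded with GTP in the nucleus, releases cargo from importins and loads it on exportins. Pores are assembled both after mitosis and during interphase, when dividing cells add pores as the nucleus grows.

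Promoter sequences are shown for 4 genes that were lower in H/R and hold E2F letters or an E-box, Nup50, Nup54, Nup210 and Ipo4. Those of Xpo1 and Kpna2, which did not pass the test, are shown as well. Each runs 5′ to 3′ on the gene's strand, from 250 bases before the start of transcription to 50 after it, as RefSeq's GRCr8 table gives it. Capitals mark E2F letters (TTTGGCGC, TTTCCCGC, TTTCGCGC or TTTGCCGC), the E-box CACGTG, the NRF1 palindrome and CCAAT, each searched on both strands. Nup50 lies at chr7:117927632-117927931 (+), Nup54 at chr14:15901784-15902083 (+), Nup210 at chr4:125166998-125167297 (-), Ipo4 at chr15:33097192-33097491 (-), Xpo1 at chr14:101434200-101434499 (+) and Kpna2 at chr10:92445792-92446091 (-).
Nup50: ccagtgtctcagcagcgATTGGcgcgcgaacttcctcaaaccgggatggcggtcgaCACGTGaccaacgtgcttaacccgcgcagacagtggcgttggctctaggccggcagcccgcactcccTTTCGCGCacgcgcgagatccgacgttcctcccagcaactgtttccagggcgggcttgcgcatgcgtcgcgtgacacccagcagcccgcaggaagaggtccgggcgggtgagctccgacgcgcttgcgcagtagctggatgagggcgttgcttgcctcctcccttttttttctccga
Nup54: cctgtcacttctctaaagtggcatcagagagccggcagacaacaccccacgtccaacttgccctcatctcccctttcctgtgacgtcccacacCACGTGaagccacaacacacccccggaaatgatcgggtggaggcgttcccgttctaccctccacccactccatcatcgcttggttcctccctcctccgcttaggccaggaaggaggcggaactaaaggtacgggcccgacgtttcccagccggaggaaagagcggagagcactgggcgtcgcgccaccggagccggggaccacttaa
Nup210: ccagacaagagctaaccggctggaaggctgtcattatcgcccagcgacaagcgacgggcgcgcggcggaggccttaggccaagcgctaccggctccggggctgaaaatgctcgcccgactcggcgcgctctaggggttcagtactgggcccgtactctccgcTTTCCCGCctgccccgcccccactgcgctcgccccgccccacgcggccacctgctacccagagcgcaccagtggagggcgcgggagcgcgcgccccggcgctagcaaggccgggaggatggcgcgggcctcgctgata
Ipo4: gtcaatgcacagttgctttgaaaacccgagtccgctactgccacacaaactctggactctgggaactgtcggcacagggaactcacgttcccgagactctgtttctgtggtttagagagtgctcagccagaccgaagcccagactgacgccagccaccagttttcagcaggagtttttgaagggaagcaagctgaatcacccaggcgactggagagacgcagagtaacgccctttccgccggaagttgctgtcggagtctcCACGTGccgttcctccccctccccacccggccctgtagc
Xpo1: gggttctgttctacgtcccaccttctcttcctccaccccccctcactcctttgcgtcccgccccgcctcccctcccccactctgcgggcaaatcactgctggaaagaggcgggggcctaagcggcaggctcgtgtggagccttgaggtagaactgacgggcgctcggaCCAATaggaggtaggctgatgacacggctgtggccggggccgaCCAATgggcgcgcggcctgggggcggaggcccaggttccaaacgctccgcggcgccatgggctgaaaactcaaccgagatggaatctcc
Kpna2: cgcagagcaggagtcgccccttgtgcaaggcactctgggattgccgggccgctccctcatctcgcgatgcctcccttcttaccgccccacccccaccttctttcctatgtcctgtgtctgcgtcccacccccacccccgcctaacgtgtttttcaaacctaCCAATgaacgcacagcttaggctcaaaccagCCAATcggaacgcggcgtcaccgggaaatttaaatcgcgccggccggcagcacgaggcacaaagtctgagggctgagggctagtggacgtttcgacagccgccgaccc

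The Nup50 promoter held 1 E2F match (TTTCGCGC, 127 bases before the start), 1 E-box and 1 CCAAT on the opposite strand. Nup210 held 1 E2F match (TTTCCCGC, 88 bases before the start), and Nup54 and Ipo4 held 1 E-box each, that of Ipo4 lying downstream of the start. Xpo1 and Kpna2 each held 2 CCAAT matches and none of the other marked letters. The table held promoters for 29 of the 34 genes (not for Kpna1, Kpna3, Kpnb1, Nup107 and Xpo7). E2F letters stood in 4 of 29 promoters (13.8%), against 3.86% of the 8241 promoters of tested coding genes. The E-box stood in 4 of 29 (13.8%, against 8.94%), the NRF1 palindrome in 1 of 29 (3.45%, against 1.72%), CCAAT in 13 of 29 (44.8%, against 38.9%) and the SP1 letters GGGCGG in 18 of 29 (62.1%, against 57.0%). Of the 10 promoters of genes lower in H/R, 2 held E2F letters, 3 an E-box, 1 CCAAT and 4 SP1 letters, and of the other 19 promoters 2, 1, 12 and 14 did. In the Nup62 promoter 4 bases belonged to both an E2F and an SP1 match, and no other overlap between motifs occurred. These matches are descriptions of letters in a window, and absence says nothing about a factor.

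After hypoxia and reoxygenation, 11 of the 33 genes that could be tested fell and 0 rose (limma, Benjamini-Hochberg adjusted p under 0.05 over 15899 probes). The background over all 10001 coding genes tested was 9.62% lower and 16.2% higher in H/R, 25.8% in all. The 11 genes that fell were Nup160, Nup85, Nup107, Nup35, Nup205, Nup54, Nup50, Nup153, Nup210, Ipo4 and Tnpo2. They were 1.33 to 4.47 times lower in H/R. Nup160 was tested only because of its control scans, being well above background in 2 of 3 H/R scans. The median change over the 33 genes was -0.33 on the log2 scale (H/R minus control), against 0.07 over all coding genes tested, and 28 of 33 changes lay below 0, against 42.8% of all coding genes. Of 16 nucleoporins tested 9 fell, with a median of -0.43, and of 17 receptors 2 fell, with a median of -0.28. The difference between these counts was not tested. Scaling each array on its median lowers every change by the same amount, the median of all coding genes then being -0.06. This gave 14 genes lower and 0 higher, and turned the split over all coding genes to 1433 lower and 1100 higher in H/R, against 962 and 1617 as reported. No gene passed after normexp background correction, with an ordinary two-sample test or with no filter on dim probes (0 by limma or that test). At an unadjusted p under 0.05 there were, in that order, 5 of 33, 13 of 33 and 14 of 34 genes. Among all coding genes there were 1291 of 10001, 3076 of 10001 and 3708 of 13823.

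**Figure D1:**
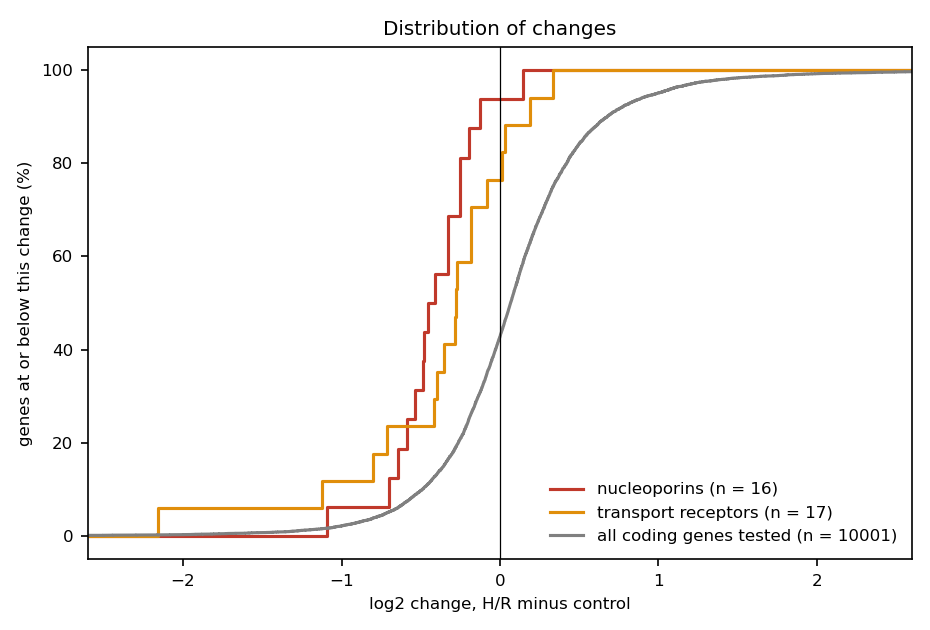
Cumulative share of genes (y axis, %) at or below each log2 change, H/R minus control (x axis), for 16 nucleoporins, 17 transport receptors and 10001 coding genes tested. The curves of both families lie left of the grey curve over most of their range, with medians of -0.43 and -0.28 against 0.07.

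Signals are given below as multiples of the 75th percentile of their own array, so that 1 is a bright probe's signal, and signals of different probes are not compared. H/R scans are listed as replicates 1, 2 and 3 and then control scans likewise. In 25 of 33 genes all H/R scans lay below all control scans, against 27.9% of all coding genes, and in 3 they lay above, against 38.2%. Replicates 2 and 3 of a group are scans of 1 array, so these counts rest on 2 arrays per group. Changes are on the log2 scale with limma's moderated SE, and each adjusted p is limma's.

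**Figure D2:**
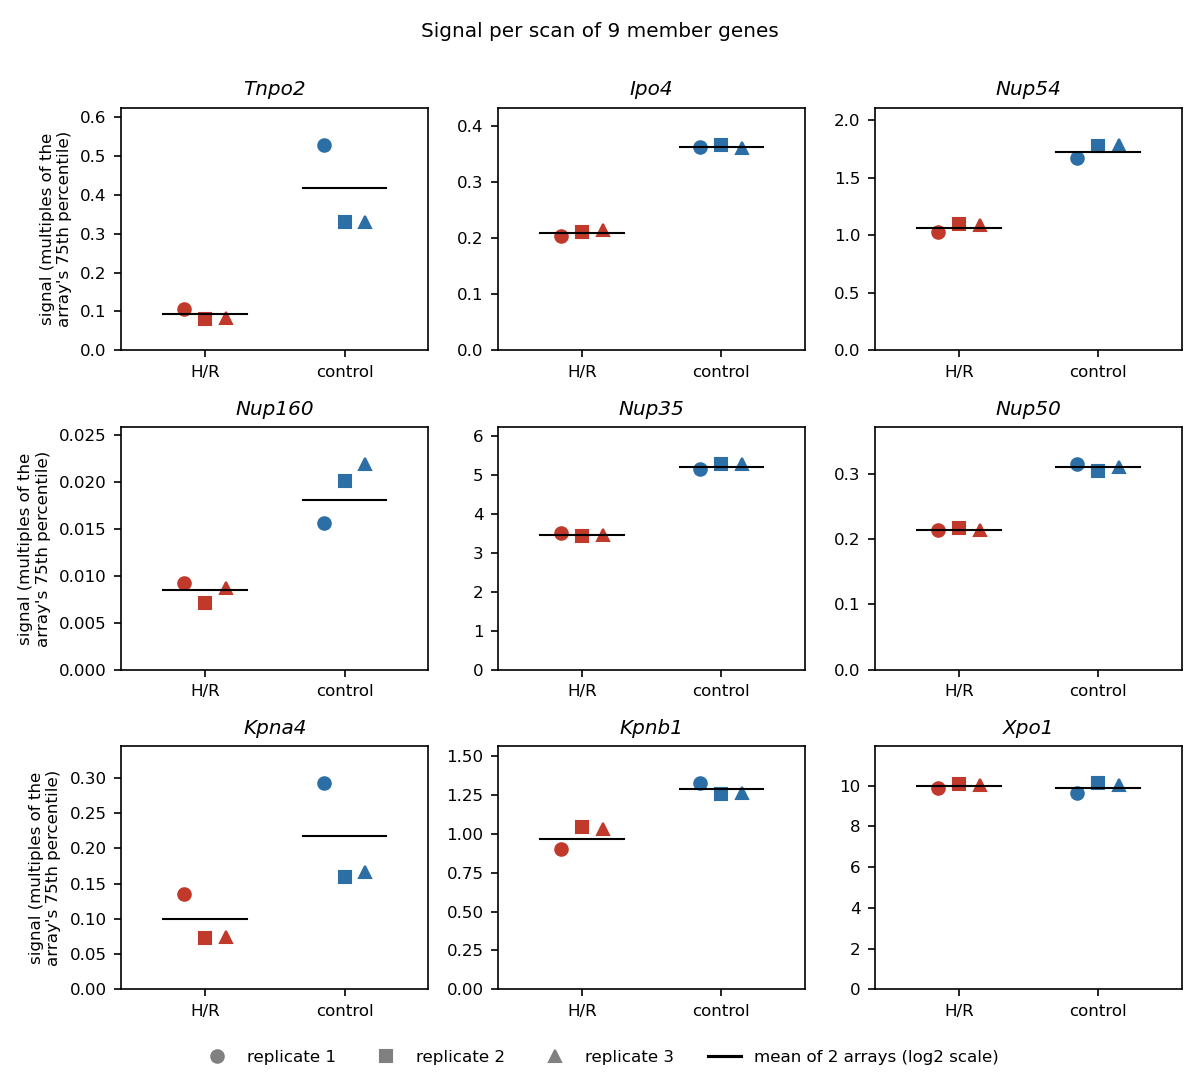
Signal of 9 genes in each scan, in multiples of the array's 75th percentile, H/R left and control right, with the mean of the 2 arrays as a line. Groups are separate for each gene except Xpo1, and the arrays of a group lie apart for Tnpo2 and Kpna4.

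Of the Y complex, the scaffold of the outer rings, 4 genes under the naming rule were tested. Of these 3 fell (75%, against 9.62% of all coding genes). Sec13, another Y complex gene outside that rule, had overlapping scans and a change of 0.0015 (limma, adjusted p = 0.993). Nup85, which encodes a subunit on a short arm of the Y, had signals of 3.05, 2.89 and 2.92 in H/R scans, against 4.40, 5.00 and 4.83 in control scans. It fell by 0.64 ± 0.11 (adjusted p = 0.0173). Nup107, a subunit of the stem, had signals of 4.15, 4.04 and 4.09 in H/R, against 5.88, 5.66 and 5.59 in control, and fell by 0.48 ± 0.09 (adjusted p = 0.0246). In both genes the H/R scans were close together and below every control scan. Nup160, which encodes a large scaffold subunit, had signals of 0.00922, 0.00709 and 0.00873 in H/R, against 0.0157, 0.0201 and 0.0219 in control. It fell by 1.09 ± 0.18 (adjusted p = 0.0171), but it was a dim probe. Being well above background in 2 of 3 H/R and 3 of 3 control scans, it was tested only through the group where it was higher. Its change was 0.62 after normexp background correction. With only probes well above background in all 6 scans, which leaves Nup160 out, 12 of 32 genes fell, 8 of them nucleoporins. The background in that fit was 1038 of 9421 coding genes lower. Nup37, a small peripheral subunit, had signals of 2.71, 2.59 and 2.59 in H/R, against 3.43, 3.24 and 3.17 in control. Its scans also separated, but its change of -0.33 ± 0.10 did not pass (adjusted p = 0.0712).

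Of the inner ring genes 2 of 4 fell (50%, against 9.62% of all coding genes). Nup35, which encodes a membrane-binding subunit of the ring, had signals of 3.50, 3.43 and 3.46 in H/R scans, against 5.14, 5.27 and 5.28 in control scans. It fell by 0.59 ± 0.09 (adjusted p = 0.0152). Nup205, a large scaffold protein, had signals of 9.08, 8.82 and 9.01 in H/R, against 12.1, 12.0 and 11.8 in control, and fell by 0.41 ± 0.09 (adjusted p = 0.0339). The spread between arrays was small beside these differences, with SDs between 0.016 and 0.027 on the log2 scale for both genes in both groups. Nup93, which links the ring to the channel nucleoporins, differed by -0.33 ± 0.13 (adjusted p = 0.123) and Nup155, a scaffold subunit, by -0.25 ± 0.10 (adjusted p = 0.124). Neither passed, although their scans did not overlap.

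Of the 4 channel and FG nucleoporins 1 fell (25%, against 9.62% of all coding genes). Nup54, which forms the central channel together with Nup62 and Nup58, had signals of 1.028, 1.098 and 1.086 in H/R scans, against 1.669, 1.773 and 1.786 in control scans. It fell by 0.70 ± 0.10 (adjusted p = 0.0121). Its partners did not pass. Nup62, the founding FG nucleoporin, had signals of 8.51, 7.46 and 7.49 in H/R, against 9.30, 9.85 and 9.58 in control, a change of -0.25 ± 0.11 (adjusted p = 0.157, 95% interval -0.54 to 0.03). Nup58 differed by -0.19 ± 0.20 (adjusted p = 0.519) with overlapping scans, because H/R replicate 1 (0.0693) lay below and H/R replicates 2 and 3 (both 0.103) lay above the control scans (0.0950 to 0.0987). Nup98, an FG nucleoporin whose precursor also yields a Y complex subunit, had signals of 7.02, 6.09 and 6.16 in H/R, against 7.13, 7.23 and 7.19 in control. Its change was -0.13 ± 0.11 (adjusted p = 0.425, 95% interval -0.41 to 0.15).

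Both nuclear basket genes under the naming rule fell, while Tpr, which encodes the main basket filament, had a change of 0.02 (limma, adjusted p = 0.916). Nup50, which binds importin alpha and helps free it from cargo, had signals of 0.213, 0.217 and 0.214 in H/R scans, against 0.315, 0.303 and 0.310 in control scans. It fell by 0.54 ± 0.09 (adjusted p = 0.0186). Nup153, which anchors the basket, had signals of 0.257, 0.244 and 0.246 in H/R, against 0.347, 0.338 and 0.344 in control, and fell by 0.45 ± 0.09 (adjusted p = 0.0286). Both had nearly equal signals in all scans of a group. The membrane nucleoporin gene Nup210, needed for muscle differentiation of mouse myoblasts in culture, had signals of 0.0392, 0.0361 and 0.0366 in H/R, against 0.0487, 0.0561 and 0.0573 in control. It fell by 0.48 ± 0.12 (adjusted p = 0.0472), close to the threshold, and its change was 0.27 after normexp background correction.

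On the cytoplasmic face no gene passed. Nup88, which pairs with Nup214, was the 1 nucleoporin whose H/R scans (2.45, 2.69 and 2.67) all lay above the control scans (2.26, 2.36 and 2.37), with a change of 0.15 ± 0.10 (adjusted p = 0.331). Nup42 was not tested, because it was well above background in 2 of 3 H/R and 1 of 3 control scans. Its signals overlapped, at 0.00582 to 0.00740 in H/R and 0.00669 to 0.00804 in control.

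**Figure D3:**
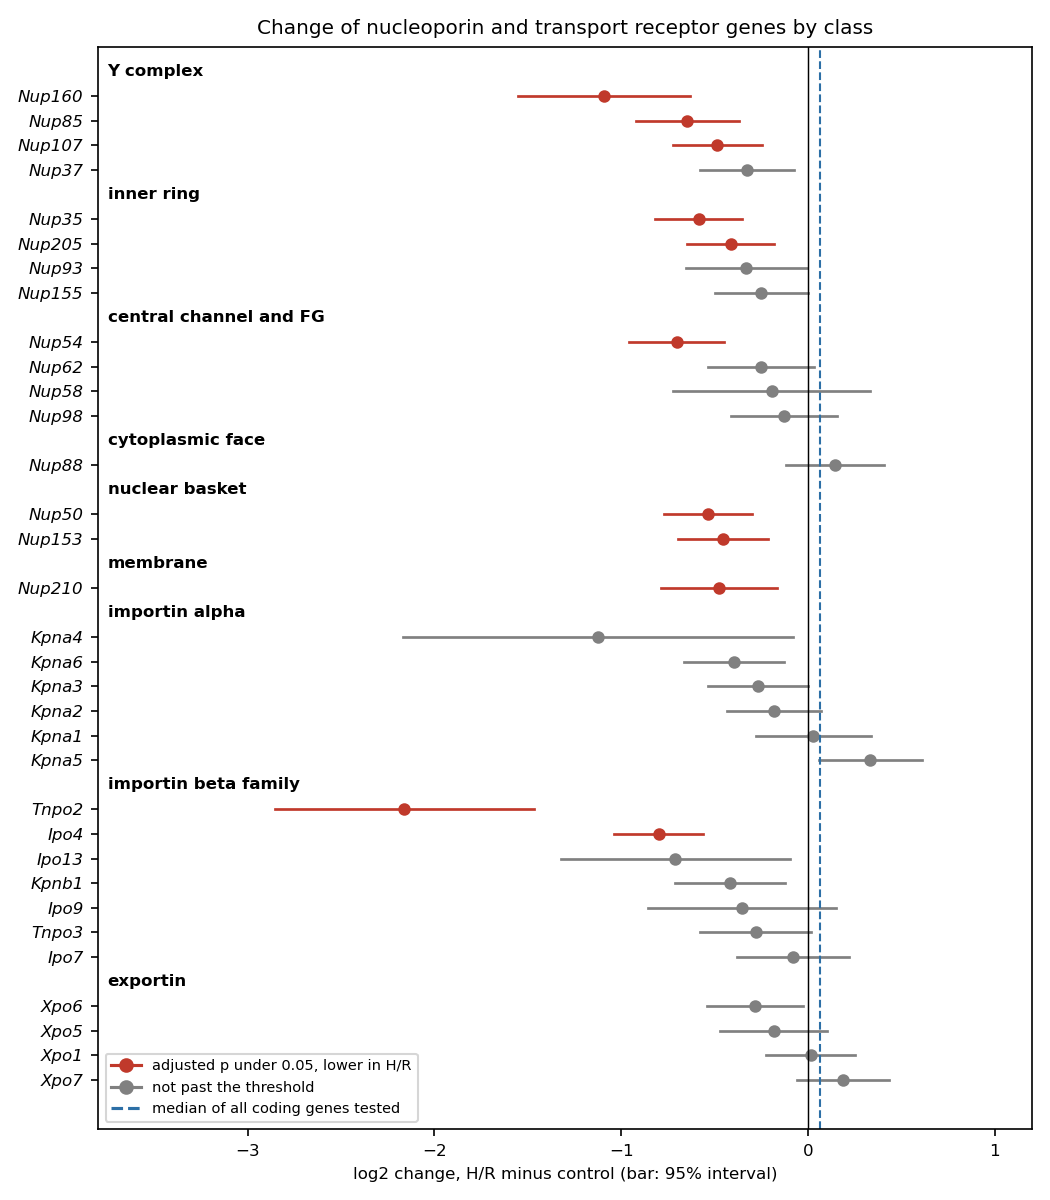
Log2 change, H/R minus control (x axis), of 33 genes by subcomplex or receptor class, with the 95% interval from limma as a bar. Red marks the 11 genes past the threshold, all left of 0; the dashed line is the median of all coding genes (0.07).

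Among the importin beta family, which had 7 genes tested, Tnpo2 and Ipo4 fell (28.6%, against 9.62% of all coding genes). Tnpo2 encodes transportin 2, a close relative of the receptor that imports many hnRNP proteins, which bind RNA. Its signals were 0.107, 0.0802 and 0.0828 in H/R scans, against 0.528, 0.329 and 0.331 in control scans. It fell by 2.16 ± 0.27 (adjusted p = 0.00876), to 22.4% of the control signal, which made it the gene with the largest change of the 33. The 2 arrays of a group differed for it more than for most genes, with SDs of 0.28 (H/R) and 0.48 (control) on the log2 scale, against medians of 0.08 and 0.07 over the 33 genes. With 1 array left out its change was -2.50 to -1.82, and the highest adjusted p of limma was 0.0490. Ipo4, which imports histones and some ribosomal proteins, had signals of 0.204, 0.211 and 0.215 in H/R, against 0.362, 0.366 and 0.360 in control. It fell by 0.80 ± 0.09 (adjusted p = 0.00744), the smallest adjusted p of the 33 genes.

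The other beta family genes had changes below 0 that did not pass. Kpnb1, the carrier of importin alpha and its cargo, had signals of 0.900, 1.05 and 1.03 in H/R scans, against 1.32, 1.26 and 1.26 in control scans. Its scans separated, and its change of -0.42 ± 0.11 lay just outside the threshold (adjusted p = 0.0579, 95% interval -0.71 to -0.12). Ipo13, which works in both directions across the pore, had signals of 0.226, 0.168 and 0.168 in H/R, against 0.383, 0.262 and 0.269 in control (-0.71 ± 0.24, adjusted p = 0.0916). In both groups of Ipo13 replicate 1 lay above the other scans. The SR protein importer Tnpo3, the histone importer Ipo9 and the ribosomal protein importer Ipo7 differed by -0.28, -0.35 and -0.08 (adjusted p between 0.143 and 0.644), with overlapping scans for Ipo9 and Ipo7.

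None of the 6 importin alpha genes passed (0 by limma). At limma's unadjusted p under 0.05 there were 4 of the 6, against 4186 of 10001 coding genes. Kpna5, with a change above 0, was among the 4. Kpna4 had the second largest change of all 33 genes, -1.12 ± 0.40, but also the widest spread (adjusted p = 0.108). Its signals were 0.136, 0.0730 and 0.0743 in H/R scans, against 0.292, 0.160 and 0.166 in control scans. In both groups its scaled signal in replicate 1 lay above the other scans. Kpna6 had signals of 0.372, 0.385 and 0.378 in H/R, against 0.523, 0.472 and 0.468 in control, and lay just outside the threshold with -0.40 ± 0.10 (adjusted p = 0.0520). Kpna5, close to Kpna6 and Kpna1 in sequence, was the 1 importin alpha whose H/R scans (0.0455 to 0.0473) all lay above the control scans (0.0340 to 0.0393), with a change of 0.33 ± 0.11 (adjusted p = 0.0835). Kpna2, abundant in dividing cells, had signals of 17.9, 16.9 and 17.2 in H/R, against 19.2, 20.6 and 20.4 in control. Its scans separated by little, and its change of -0.18 ± 0.10 did not pass (adjusted p = 0.226). Kpna3 differed by -0.27 (adjusted p = 0.126) and Kpna1 by 0.03 (adjusted p = 0.871). The gene table lists 9 pseudogenes of Kpna1, 2 of Ipo7 and 1 each of Kpna3, Kpna4, Nup35 and Nup50, and whether their transcripts bind these probes was not tested.

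The 4 exportin genes did not pass either (0 by limma). At limma's unadjusted p under 0.05 there was 1 of the 4, against 4186 of 10001 coding genes. Xpo1, which encodes the main exportin for proteins with leucine-rich export signals, had signals of 9.89, 10.1 and 10.1 in H/R scans, against 9.66, 10.1 and 10.0 in control scans. These scans overlapped throughout, and the change was 0.02 ± 0.09 (adjusted p = 0.912, 95% interval -0.22 to 0.25). Xpo6, the exportin of actin with profilin, had signals of 12.02, 10.86 and 11.01 in H/R, against 13.84, 14.02 and 14.1 in control (-0.28 ± 0.10, adjusted p = 0.104). Xpo5, which exports precursors of microRNAs, differed by -0.18 ± 0.11 (adjusted p = 0.276). Xpo7 lay above control in every H/R scan (2.20 to 2.38 against 1.99 to 2.04), with a change of 0.19 ± 0.10 that did not pass (adjusted p = 0.211).

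The members nearest the threshold of 0.05 on its 2 sides were Nup210 and Nup205 within it (0.0472 and 0.0339) and Kpna6 and Kpnb1 outside it (0.0520 and 0.0579). The calls depend on having both arrays of each group. A fit without 1 array sets a lone array against 2, takes the spread from the other group and limma's prior, and so assumes that the lone array varies like the others. Without H/R array 1 the count of genes that fell was 1 (Tnpo2), and without H/R array 2 (replicates 2 and 3) it was 2 (Ipo4 and Tnpo2). Without control array 1 it was 6, and without control array 2 also 6. The percentage of all coding genes called lower was between 2.36% and 6.64% in these fits.

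**Figure D4:**
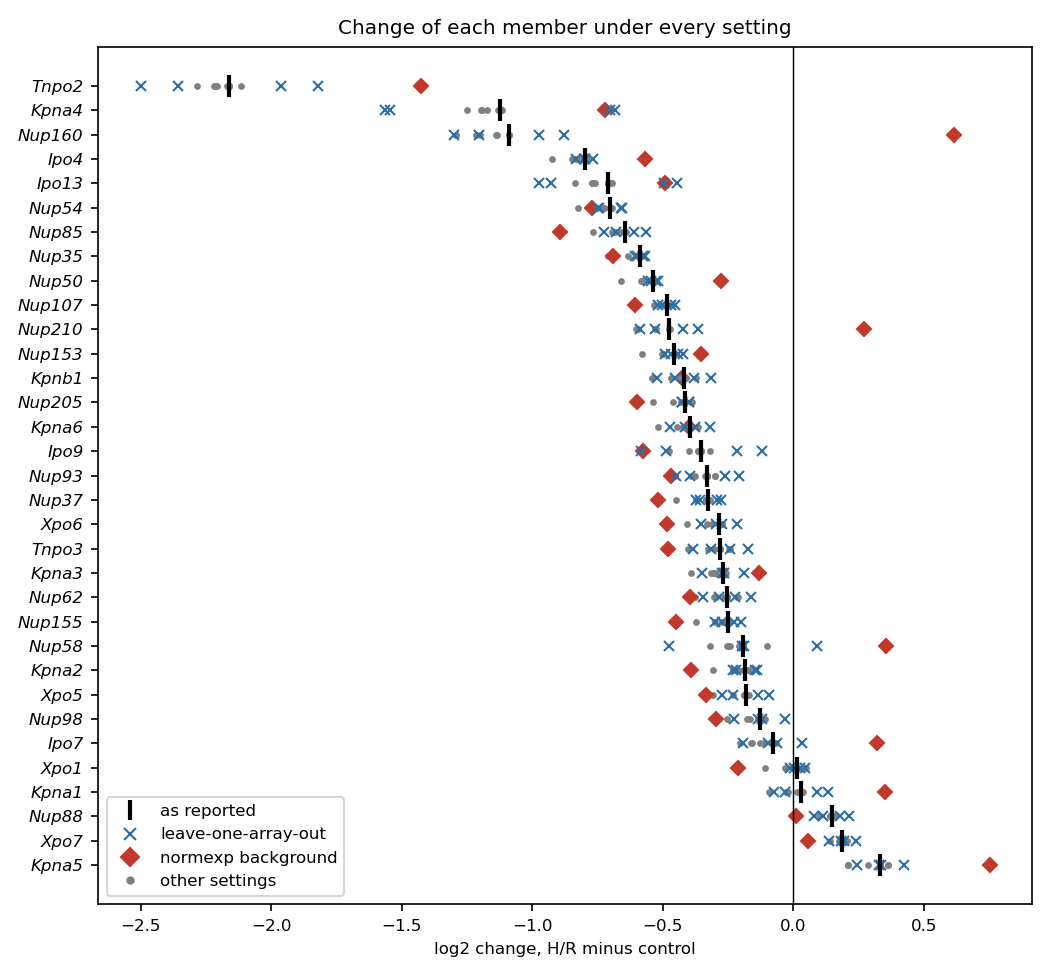
Log2 change, H/R minus control (x axis), of each of 33 genes as reported (black bar), with 1 array left out (blue crosses), after normexp background correction (red diamonds) and under the other settings (grey dots). Nup160 and Nup210 lie at 0.62 and 0.27 after normexp, and the other 9 genes past the threshold lie left of 0 under every setting shown.

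Other genes of the pore and of transport were looked up from lists that the naming rule does not cover. Of 8 other pore genes tested 1 fell (12.5%, against 9.62% of all coding genes) and 0 rose, with a median of -0.06. Ndc1, which anchors the pore in the membrane, had signals of 1.62, 1.49 and 1.51 in H/R scans, against 2.32, 2.47 and 2.42 in control scans, and fell by 0.61 ± 0.10 (adjusted p = 0.0167). The membrane protein gene Tmem33, the membrane nucleoporin gene Pom121 and the mRNA export factor gene Gle1 differed by -0.39, -0.21 and -0.05 and did not pass. Of 6 other karyopherin and adaptor genes limma called 0, and the median was -0.10. At limma's unadjusted p under 0.05 there was 1 gene, against 4186 of 10001 coding genes. That gene was Cse1l, which encodes the exporter of importin alpha, with signals of 9.83, 9.54 and 9.54 in H/R, against 11.4, 11.7 and 11.8 in control (-0.26, adjusted p = 0.109).

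Of the Ran cycle genes 3 were tested and 1 fell (33.3%, against 9.62% of all coding genes). Ranbp1, whose product helps Ran hydrolyse GTP, had signals of 1.63, 1.88 and 1.86 in H/R scans, against 2.37, 2.84 and 2.79 in control scans, and fell by 0.57 (adjusted p = 0.0419). Ran itself had signals of 52.8, 38.2 and 37.6 in H/R, against 45.9, 51.9 and 52.0 in control. The H/R arrays lay on both sides of the control arrays, and the change of -0.13 did not pass (adjusted p = 0.645). Rangrf, a Ran-binding factor, differed by -0.50 and lay just outside the threshold (adjusted p = 0.0531).

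In the list of mRNA export genes 3 of 11 fell (27.3%, against 9.62% of all coding genes) and 0 rose, with a median of -0.11. The THO complex gene Thoc6 fell by 0.69 (adjusted p = 0.0103), the export receptor subunit gene Nxt1 by 0.45 and the helicase gene Ddx39a by 0.46 (adjusted p = 0.0416 for both). Thoc1 differed by -0.32 and did not pass. Of 6 lamina and envelope genes limma called 0. The lamin gene Lmnb1 (-0.36, adjusted p = 0.0610) alone had an unadjusted p under 0.05, against 4186 of 10001 coding genes. Genes of proliferation were measured beside these. Of 12 S phase genes 10 fell (83.3%, against 9.62% of all coding genes) and 0 rose, with a median of -0.72. Their summed signal was 81.5 to 83.0 in H/R scans, against 116 to 123 in control scans. Of 10 mitosis genes 1 fell, Aurkb (10%, against 9.62% of all coding genes), and the median was -0.15. Their summed signal was 75.7 to 77.6 in H/R, against 79.3 to 85.4 in control. The part of proliferation in the values of the pore and receptor genes was not tested.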

How the data were processed

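Each of the 6 scans was deposited as Agilent scanner output, made with Feature Extraction 11.0.1.1 per the file headers. The deposited processed signal is an intensity, background-subtracted by the authors' scanner software. Deposited spot flags, values other than a measurement, gave background and outlier status. The authors' deposited table holds log2 values, and the sources used here do not give their normalization.

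Signals were divided by each array's 75th percentile over the 24578 probes measured in all scans and log2 transformed. Control spots and outlier flags were left out. Probes well above background in all 3 scans of a group were tested (15899 of 24684 probes). The scans of replicates 2 and 3 were averaged in each group, leaving 2 arrays per group, with 2 residual and 2.86 prior degrees of freedom. H/R and control were compared with limma 3.58.1 in R 4.3.3 (lmFit, eBayes) and Benjamini-Hochberg adjustment at 0.05 over all tested probes. The fit was also run on simulated data with independent noise. Its outcome is not reported here, and it cannot check the noise between these arrays. Probe accessions were named through the GRCr8 RefSeq gene table, and tables and plots were made in Python 3.11.15. All 34 genes are named. By rule, scan values were given for genes past the threshold (at most 14) and for 6 well-known genes. Up to 4 genes of each other list with the smallest adjusted p are named, Ran always. Tpr and Sec13 were named outside this rule. Scan values of further genes that did not pass were chosen after their values were seen. The genes and lists were chosen with earlier results of these data known. Alternatives changed the scaling, background correction, filter, test, averaging of scans, replicate block and arrays used. The mean signal column needed for normexp was replaced by the median signal. Protein sequences were not used here.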

Additional observations from a re-analysis of the deposited data

How the results depend on the processing

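With the 6 scans as separate samples, 23 genes were lower and 2 higher in H/R, with 10 receptors lower, and 2301 coding genes lower and 3133 higher; scans of 1 array then count as replicates. Receptors lower numbered 4 with the 75th percentile taken over spots (an alternative chosen after seeing the data), with median scaling, with the replicate block and with only probes well above background in all 6 scans. The replicate block gave 12 genes lower, 10 of them among the 11 reported: Kpna4 (adjusted p = 0.00928) and Ipo13 (0.0190) passed and Nup210 (0.0630) did not. Across the tested probes, the difference between arrays 1 and 2 in H/R correlated with that in control at 0.1527. The labels give no pairing, and whether same-numbered arrays share a batch was not tested. Median scaling gave a median change of -0.45. With no filter on dim probes 0 genes, 0 nucleoporins and 0 receptors passed, and 112 coding genes were lower and 317 higher. After normexp, and with the ordinary two-sample test, 0 genes, 0 nucleoporins, 0 receptors and 0 coding genes passed either way, with 1291 and 3076 coding genes at an unadjusted p under 0.05. The authors' deposited table gave 12 genes lower, 10 of them among the 11 reported, and 977 of 10169 coding genes lower. Nup42 (-0.48, adjusted p = 0.0410) and Kpna6 (-0.42, adjusted p = 0.0451) passed there, and Nup205 did not (adjusted p = 0.0530). Median and spot scaling shift all genes alike, which turned values near 0. Signs turned for Kpna1 (-0.019 over spots, -0.026 in the authors' deposited table, -0.095 with median scaling, -0.023 with quantile normalization), Xpo1 (-0.032 over spots, -0.11 with median scaling, -0.21 after normexp) and, after normexp, Nup160 (0.62), Nup58 (0.36), Nup210 (0.27) and Ipo7 (0.32). The cause was not tested. Leaving out 1 array gave 1 to 6 genes lower, 0 to 4 nucleoporins, 1 to 2 receptors, and 236 to 664 coding genes lower and 457 to 1157 higher. It also gave changes of -0.48 to 0.092 for Nup58, -0.075 to 0.13 for Kpna1, -0.19 to 0.035 for Ipo7 and -0.014 to 0.046 for Xpo1, and a median of -0.37 to -0.31. Over all settings the genes' median minus that of all coding genes was -0.51 to -0.35. Nup160 was well above background in 2 of 3 H/R scans and Nup210 in all 6 scans. The mean of all coding probes of a gene was not run, because each gene had 1.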
